A study of Mus musculus with 14 samples.

Results

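Fn1, F13a1, Vcan, Tgfbi, Thbs1, F5, F10 and F7 are mouse genes for secreted proteins of the extracellular matrix and of blood clotting, followed here through dendritic cells, macrophages and monocytes sorted from bone marrow. These 8 genes, of 24980 listed, were chosen from the contrast of macrophages with monocytes in the same data, and were matched by gene symbol. All 8 are present in both deposited tables, 1 of dendritic cells (24980 genes) and 1 of macrophages and monocytes (17118 genes). The values are CPM, that is, reads or fragments of a gene relative to a fixed library total. The 2 tables were deposited separately, so levels are compared within a table and only set side by side across them.

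The 14 bulk RNA-seq libraries came from mice with 1 green fluorescent protein allele at Cx3cr1 (Cx3cr1 gfp/+), although the series' design text calls the mice wildtype. Dendritic cells were sorted as CX3CR1-GFP high, MHCII high, CD11c high, Gr-1- and B220- cells, from mice given PAM3CSK4, a synthetic lipopeptide agonist of TLR1/2, once (4 libraries) or vehicle alone (4 libraries). Macrophages (GFP-, MHCII high, CD169+, Gr-1-, B220-; 3 libraries) and monocytes (GFP high, CD115+, B220-, with Gr1 low and Gr1 high cells together; 3 libraries) were both labelled baseline. Dose, time after the dose, age, sex and the number of mice are not given in the labels. They do not say either which libraries came from different mice, so p-values reflect library-to-library spread that may be technical.

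Fibronectin, versican and the TGF-beta-induced protein are laid down around cells, where integrins and other receptors bind them, and thrombospondin 1 joins matrix, platelets and cell surfaces. Clotting starts when factor VII meets tissue factor and activates factor X, which with its cofactor factor V turns prothrombin into thrombin. Thrombin makes fibrin, and the transglutaminase factor XIII then cross-links fibrin strands to each other and to fibronectin. Hepatocytes make most of the circulating factors V, VII and X, whereas the A subunit of factor XIII comes largely from cells of the bone marrow lineage, among them monocytes, macrophages and megakaryocytes.

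The markers of the sorted cells bear on every level below. Summed over 14 monocyte genes, macrophage libraries had 855 to 1279 CPM and monocyte libraries 6414 to 7389 CPM. Over 14 macrophage genes the sums were 354 to 552 CPM in macrophage libraries and 143 to 495 CPM in monocyte libraries, which overlap. Siglec1, which encodes the CD169 of the macrophage gate, was at 18.9, 18.6 and 25.2 CPM in macrophages and at 34.7, 2.20 and 14.1 CPM in monocytes, so the defining marker did not separate the groups. Macrophage libraries also held megakaryocyte and platelet transcripts (14 genes, 106 to 323 CPM, against 14.7 to 22.3 CPM in monocytes), plasma cell and B cell transcripts (10 genes, 572 to 8527 CPM against 112 to 131 CPM) and T and NK cell transcripts (8 of 9 genes in the table, 111 to 332 CPM against 10.6 to 22.6 CPM). Erythroid transcripts were higher as well (10 genes, 103 to 756 CPM against 6.47 to 68.7 CPM). Of these 10 of 10 tested were called, against 20.2% of all genes. Of 12 neutrophil genes tested 8 were higher and 4 lower, and their sums overlapped, at 1671 to 4019 CPM in macrophages and 2375 to 3406 CPM in monocytes. The part of these other cells in the levels of macrophage libraries was not tested. Among the dendritic cell libraries, PAM3CSK4 replicate 4 stood apart. It had 608 CPM over 12 conventional dendritic cell genes, against 3459 to 4483 CPM in the other PAM3CSK4 libraries and 7852 to 10364 CPM with vehicle. Its Itgax (CD11c of the gate) was at 27.5 CPM, against 181 to 283 CPM in the other PAM3CSK4 libraries, and its 13 neutrophil genes summed to 11546 CPM, against 515 to 1565 CPM in the others and 417 to 826 CPM with vehicle. Changes of the 8 genes between PAM3CSK4 and vehicle are given with and without this library. In bulk libraries, fewer cells of a type and less RNA per cell cannot be told apart.

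Fn1, which encodes fibronectin (mm10, chromosome 1, 71585473 to 71653234, minus strand), was the most abundant of the genes in monocytes. Macrophages had 191, 53.2 and 357 CPM, and monocytes 4067, 4472 and 5586 CPM. Every macrophage library lay more than 10 times below the lowest monocyte library, and the mean in monocytes was 23.5 times that in macrophages. On the log2(CPM + 1) scale, on which all log2 values here are given, macrophages were lower by a difference of −4.91.

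F13a1 encodes the A subunit of factor XIII (chromosome 13, 36867178 to 37050244, minus strand). Its level was 62.4, 21.4 and 111 CPM in macrophages and 1068, 1990 and 1397 CPM in monocytes. The groups lay far apart, with a log2 difference of −4.73 and a mean in monocytes 22.9 times that in macrophages. Macrophage replicate 2 was the lowest library for both Fn1 and F13a1, and macrophage replicate 3 the highest of its group for both.

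F13a1 has 2 transcription starts in RefSeq (GRCm38.p6), and the 300 bases around each, 250 before and 50 after the start, are shown because F13a1 is the clotting gene with the largest difference between macrophages and monocytes. The promoters were searched on both strands for GAGGAA, a core of the kind that ETS factors such as PU.1 bind in myeloid genes, for the AP-1 element TGANTCA and for the TATA box TATAAA, none of which contains another. Capitals mark GAGGAA, and both sequences are on the minus strand, 5′ to 3′.
F13a1 first start, chr13:37050195-37050494: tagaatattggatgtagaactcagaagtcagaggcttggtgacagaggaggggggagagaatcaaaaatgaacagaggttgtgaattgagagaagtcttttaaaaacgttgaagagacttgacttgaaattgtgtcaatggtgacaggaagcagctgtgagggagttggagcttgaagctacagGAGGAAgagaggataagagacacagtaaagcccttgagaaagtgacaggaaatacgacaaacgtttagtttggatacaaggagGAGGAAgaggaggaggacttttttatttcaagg
F13a1 second start, chr13:37049164-37049463: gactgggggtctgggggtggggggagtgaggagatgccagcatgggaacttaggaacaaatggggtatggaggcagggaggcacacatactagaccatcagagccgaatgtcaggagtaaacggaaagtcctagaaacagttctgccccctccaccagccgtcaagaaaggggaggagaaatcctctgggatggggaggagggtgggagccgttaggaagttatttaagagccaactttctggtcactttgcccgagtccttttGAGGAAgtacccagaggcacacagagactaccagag
GAGGAA occurs in both F13a1 windows and, of the 6 genes with a RefSeq promoter in the table used (7 promoters, for all but Fn1 and Thbs1), also in that of F7, which makes 3 of 7 promoters. Of all 32851 mouse promoters of this length, 28.3% hold it. TGANTCA, in 7.81% of all promoters, and TATAAA, in 13.6%, are in 0 of the 7. A match is a stretch of letters and not a measured site of binding.

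Vcan encodes versican, a large chondroitin sulfate proteoglycan that binds hyaluronan (chromosome 13, 89655310 to 89742512, minus strand). It was at 4.85, 2.74 and 8.41 CPM in macrophages and at 83.5, 187 and 74.8 CPM in monocytes. The lowest monocyte library was well above the highest macrophage library (log2 difference −4.17), while monocyte replicate 2 stood above the other monocyte libraries. Tgfbi encodes a secreted matrix protein that binds integrins and collagens (chromosome 13, 56609586 to 56639359, plus strand). Its values were 58.8, 72.9 and 64.6 CPM in macrophages and 439, 325 and 487 CPM in monocytes. The groups did not overlap, and the difference of −2.64 was smaller than that of Fn1, F13a1 or Vcan. Relative to the mean, the macrophage libraries were closer to each other for Tgfbi, at 65.4 ± 7.04 CPM (SD, n = 3) with an SD of 10.8% of the mean, than for those 3 genes, where the SD was 53.7% to 76.0% of it.

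F10 and F7 are neighbours on chromosome 8 on the plus strand, 1502 bases apart, F7 at 13026034 to 13035805 and F10 at 13037308 to 13056676. F10 encodes factor X, the protease that activates prothrombin. It was at 5.89, 2.67 and 6.33 CPM in macrophages and at 48.4, 46.2 and 83.3 CPM in monocytes. The groups did not overlap, with a log2 difference of −3.35 and a mean in monocytes 11.9 times that in macrophages. F7 encodes factor VII, the protease that starts clotting with tissue factor, and was the least abundant of the genes in macrophages and in monocytes. One macrophage library had 0.120 CPM and the other two had the lowest value of the table, 0.0001 CPM, while monocytes had 0.849, 0.741 and 1.01 CPM. The table's values rise in steps, and these levels are 4, 0 and 0 steps in macrophages, where 3 steps would be 0.0440 and 0.0399 CPM in the libraries at 0, and 37 to 54 steps in monocytes. F7 was under the filter of 1 CPM in at least 3 libraries. Of the 10 hepatocyte genes, 9 were at the lowest value in the dendritic cell library with the most at that value, and their sum never passed 0.504 CPM in that table. The other table lists 2 of the 10, which summed to 0.323 to 2.84 CPM in macrophages and 0.372 to 0.507 CPM in monocytes.

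Thbs1 and F5 did not share the pattern of the others. Thbs1 encodes thrombospondin 1, which binds CD36 and CD47 and can activate latent TGF-beta (chromosome 2, 118111876 to 118127133, plus strand). It was at 5.53, 119 and 15.3 CPM in macrophages and at 19.0, 31.6 and 22.9 CPM in monocytes. Macrophage replicate 2 lay above all monocyte libraries and the other two macrophage libraries below all of them, so the log2 difference of −0.09 became −1.27 without macrophage replicate 2 and 0.83 without macrophage replicate 1. Thrombospondin 1 is stored in platelets, and the platelet gene Ppbp was at 0.778, 17.1 and 2.03 CPM in the same macrophage libraries, the highest again in replicate 2, while the sum over all 14 megakaryocyte and platelet genes was 258, 323 and 106 CPM, an order that Thbs1 did not follow in replicates 1 and 3. The part of platelet or megakaryocyte RNA in the Thbs1 values was not tested. F5 encodes factor V, the cofactor of factor Xa (chromosome 1, 164151835 to 164220277, plus strand). It was at 26.6, 50.6 and 60.5 CPM in macrophages and at 40.6, 66.1 and 52.4 CPM in monocytes. The groups overlapped, with a log2 difference of −0.26.

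In sum over the 8 genes, 6 had macrophage libraries that were all below the monocyte libraries, and Thbs1 and F5 did not. Across all 12188 genes tested, the groups did not overlap for 34.2%. Because this contrast chose the genes, these values are a description, and nothing is read from that count.

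**Figure D1:**
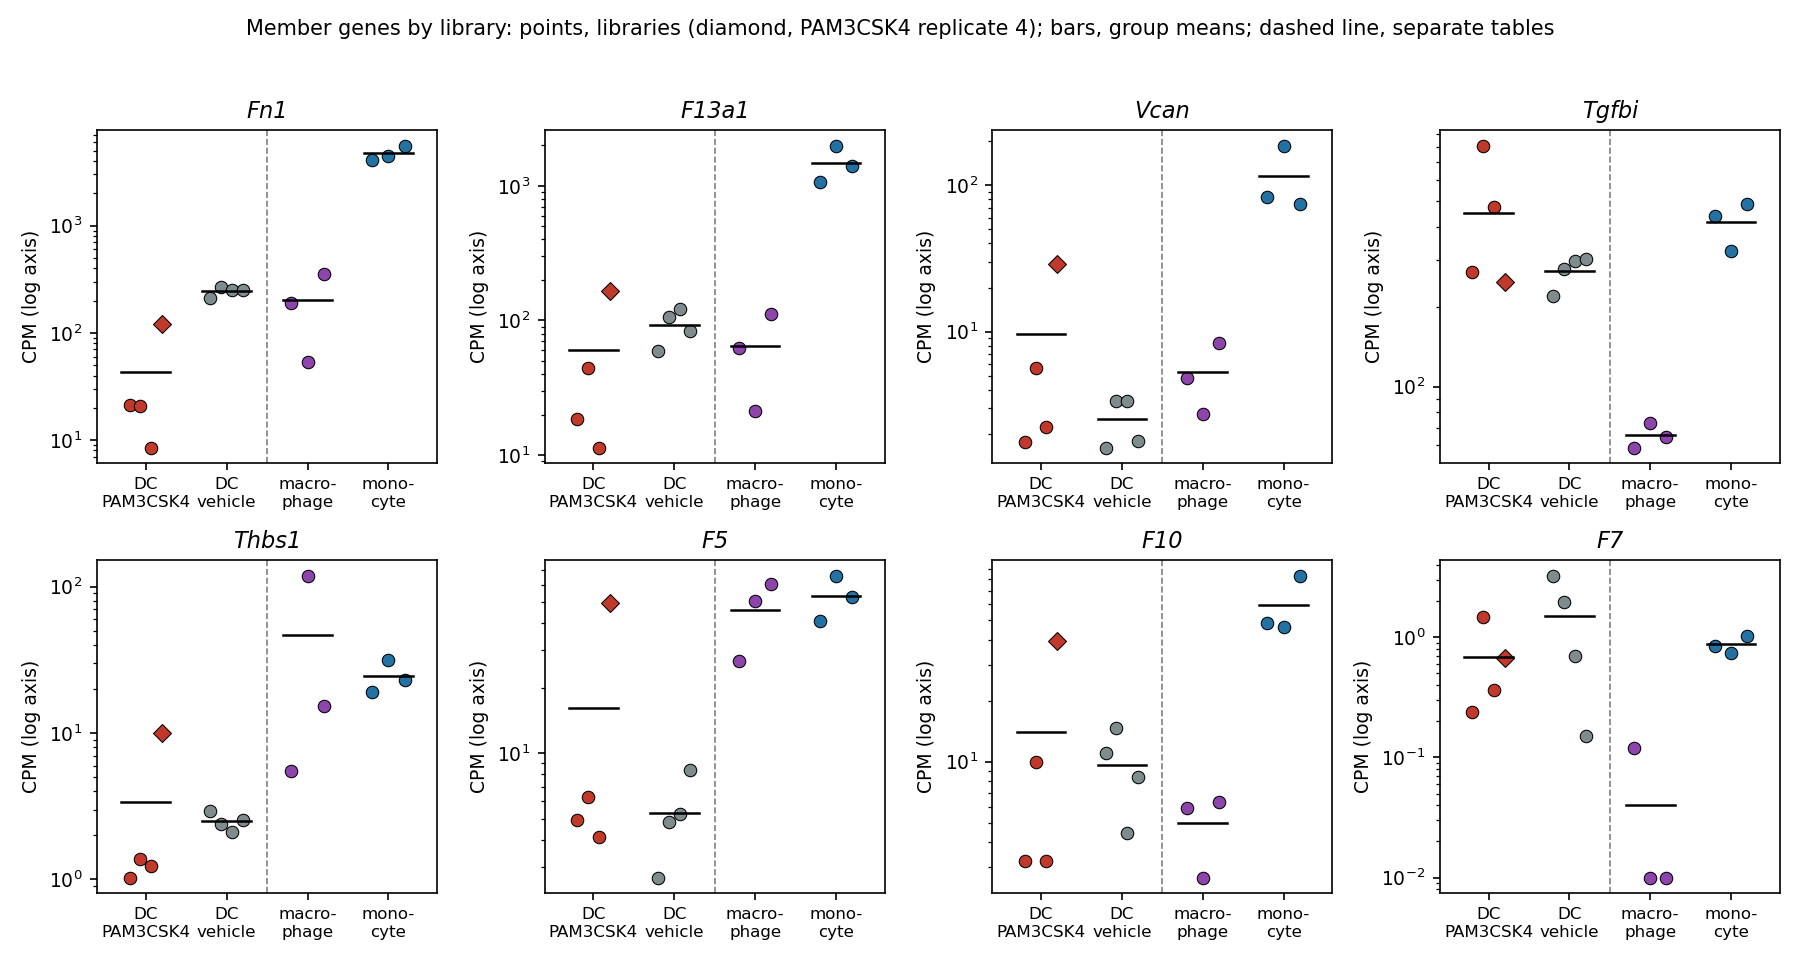
Level of each gene in CPM on a log axis (y) in each library of PAM3CSK4 and vehicle dendritic cells, macrophages and monocytes (x), with points for libraries and bars for group means; F7 values below 0.01 CPM are drawn at 0.01. In 6 panels all macrophage libraries lie below all monocyte libraries, Thbs1 and F5 overlap, and the diamond of PAM3CSK4 replicate 4 tops the dendritic cell libraries in 5 panels.

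To compare genes with each other, CPM was divided by the length of the union of each gene's exons in kilobases (GENCODE M21). In monocytes the order was Fn1 (555 ± 92.8 CPM per kb, SD, n = 3), F13a1 (371 ± 117), Tgfbi (154 ± 30.8), F10 (21.7 ± 7.63), Vcan (8.27 ± 4.47), F5 (7.13 ± 1.71), Thbs1 (4.18 ± 1.10) and F7 (0.467 ± 0.0736). Of these neighbours, Fn1 and F13a1, and Vcan and F5, did not differ beyond 1 SD on each side. In macrophages Tgfbi (24.1 ± 2.60 CPM per kb), Fn1 (23.6 ± 18.0), F13a1 (16.2 ± 11.2), Thbs1 (7.98 ± 10.8) and F5 (6.18 ± 2.34) each overlapped with the next. F10 (1.82 ± 0.732), Vcan (0.384 ± 0.206) and F7 (0.0215 ± 0.0372) followed below them. So Vcan stood above F5 in the mean of monocytes and far below it in macrophages.

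In PAM3CSK4 dendritic cells Tgfbi led with 166 ± 96.2 CPM per kb (SD, n = 4). F13a1 (15.03 ± 18.1), F10 (5.11 ± 6.30), Fn1 (5.08 ± 6.24), F5 (2.17 ± 2.98), Vcan (0.694 ± 0.936), Thbs1 (0.582 ± 0.749) and F7 (0.367 ± 0.294) followed, each within the spread of the next. Over replicates 1 to 3 alone the levels were Tgfbi 191 ± 101 CPM per kb (SD, n = 3), F13a1 6.16 ± 4.31, F10 2.01 ± 1.43, Fn1 1.98 ± 0.849, F5 0.687 ± 0.146, F7 0.368 ± 0.360, Vcan 0.230 ± 0.151 and Thbs1 0.208 ± 0.0303, so that replicate 4 moved the means of all but Tgfbi and F7 by more than 1.5 times. With vehicle the order was Tgfbi (101 ± 14.1 CPM per kb, SD, n = 4), Fn1 (28.9 ± 2.71), F13a1 (23.2 ± 6.78), F10 (3.53 ± 1.58), F7 (0.811 ± 0.742), F5 (0.711 ± 0.316), Thbs1 (0.427 ± 0.0585) and Vcan (0.183 ± 0.0696). Fn1 and F13a1, F7 and F5, and F5 and Thbs1 did not differ beyond 1 SD on each side. Tgfbi was thus first in both dendritic cell groups.

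The comparison of PAM3CSK4 with vehicle asks how dendritic cells of the marrow respond to a TLR1/2 agonist. It is separate from the contrast that chose the genes, though genes and lists were chosen with earlier results of these data known. Fn1 fell. It was at 21.2, 20.7, 8.51 and 122 CPM in PAM3CSK4 dendritic cells and at 212, 265, 250 and 253 CPM in vehicle dendritic cells. All PAM3CSK4 libraries lay below all vehicle libraries, and replicate 4 came nearest to them. The log2 change was −3.16 ± 0.58 (SE), with an adjusted p of 0.0112 by limma adjusted as Benjamini and Hochberg describe for every gene tested. An exact permutation test of Fn1 alone, two-sided, gave p = 0.0286, the smallest that the 70 groupings allow.

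Of the 7 genes that passed the filter of 1 CPM in at least 4 dendritic cell libraries, Fn1 alone was called at an adjusted p under 0.05. Across all 11377 genes tested, 5.12% were called, 2.82% as higher and 2.29% as lower with PAM3CSK4 (321 and 261 genes, against 208 and 487 with each library centred on its median). Fn1 was also the only one of the 8 genes whose groups did not overlap, against 14.8% of all genes tested. The Fn1 call was lost without vehicle replicate 1 (adjusted p = 0.0513) and without a filter on low values (0.0771), and its log2 change stayed between −3.88 and −2.65 when any 1 library was left out. Without PAM3CSK4 replicate 4 it was −3.88 ± 0.29 (adjusted p = 4.2e-06). Markers moved as well, with 4 of 12 conventional dendritic cell genes and 2 of 14 monocyte genes lower with PAM3CSK4. Of 13 macrophage genes tested 2 were higher and 3 lower, and 2 of 5 megakaryocyte genes were lower. Higher were 2 of 12 neutrophil genes, 3 of 8 erythroid genes and 2 of 8 stroma and endothelium genes. Mrc1, a macrophage gene, was at 2.93 to 62.8 CPM with PAM3CSK4 and at 199 to 291 CPM with vehicle, and Cd163 at 2.01 to 6.73 CPM with PAM3CSK4 and at 30.4 to 64.9 CPM with vehicle. Both were thus below the vehicle libraries in all PAM3CSK4 libraries, as Fn1 was. They do not stand for the macrophage list, whose sums overlapped, at 348 to 1993 CPM with PAM3CSK4 and 792 to 1353 CPM with vehicle. The part of other cell types in the Fn1 values was not tested. The monocyte sums overlapped, at 1970 to 4000 CPM with PAM3CSK4 and 2832 to 4182 CPM with vehicle.

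F13a1 was at 18.4, 44.2, 11.4 and 167 CPM in PAM3CSK4 dendritic cells and at 59.4, 107, 122 and 84.2 CPM in vehicle dendritic cells. In this gene 3 PAM3CSK4 libraries were below every vehicle library and replicate 4 was above every one. With all libraries the log2 change of −1.30 ± 0.63 did not pass (adjusted p = 0.219, limma). Without PAM3CSK4 replicate 4, F13a1 was lower by −2.03 ± 0.38 and passed (adjusted p = 0.00494). In that fit 6.83% of 11499 genes were called and 2.8% were called as lower, and Fn1 and F13a1 were the 2 of the 7 tested genes that were called.

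Thbs1 was split in the same way. Its values were 1.03, 1.38, 1.24 and 9.97 CPM in PAM3CSK4 dendritic cells and 2.93, 2.39, 2.11 and 2.55 CPM in vehicle dendritic cells. Again 3 libraries lay below all vehicle libraries and replicate 4 lay above them. The log2 change was −0.08 ± 0.46 with all libraries (adjusted p = 0.934) and −0.66 ± 0.24 without replicate 4 (adjusted p = 0.129), neither of which passed.

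Vcan, F5 and F10 did not pass either with or without that library. Vcan was at 1.76, 5.61, 2.23 and 29.0 CPM in PAM3CSK4 dendritic cells and at 1.62, 3.36, 3.39 and 1.80 CPM in vehicle dendritic cells. Its log2 change was 0.91 ± 0.61 (adjusted p = 0.365) with all libraries and 0.18 ± 0.33 without replicate 4, a value more than 1.5 times smaller on the linear scale. F5 was at 4.91, 6.27, 4.13 and 49.3 CPM in PAM3CSK4 dendritic cells and at 2.67, 4.83, 5.26 and 8.36 CPM in vehicle dendritic cells. Apart from replicate 4, at 5.90 times the highest vehicle library, the F5 values lay within the vehicle range. The F5 change was 0.79 ± 0.61 (adjusted p = 0.440) and 0.02 ± 0.31 without it. F10 was at 3.24, 10.01, 3.25 and 39.3 CPM in PAM3CSK4 dendritic cells and at 11.1, 14.6, 4.42 and 8.39 CPM in vehicle dendritic cells. The groups overlapped, and the F10 change of −0.07 ± 0.62 (adjusted p = 0.960) was −0.76 ± 0.40 without replicate 4 (adjusted p = 0.269).

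Tgfbi was at 269, 811, 474 and 248 CPM in PAM3CSK4 dendritic cells and at 219, 276, 299 and 301 CPM in vehicle dendritic cells. Replicates 2 and 3 were above all vehicle libraries and replicates 1 and 4 were within their range, with replicate 4 the lowest of the 4. The log2 change of 0.56 ± 0.35 did not pass (adjusted p = 0.333), nor did 0.79 ± 0.32 without replicate 4 (adjusted p = 0.160). F7 was at 0.237, 1.45, 0.363 and 0.674 CPM in PAM3CSK4 dendritic cells and at 3.24, 1.95, 0.690 and 0.151 CPM in vehicle dendritic cells. F7 did not reach the filter, its groups overlapped, and an exact two-sided permutation test gave p = 0.343.

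**Figure D2:**
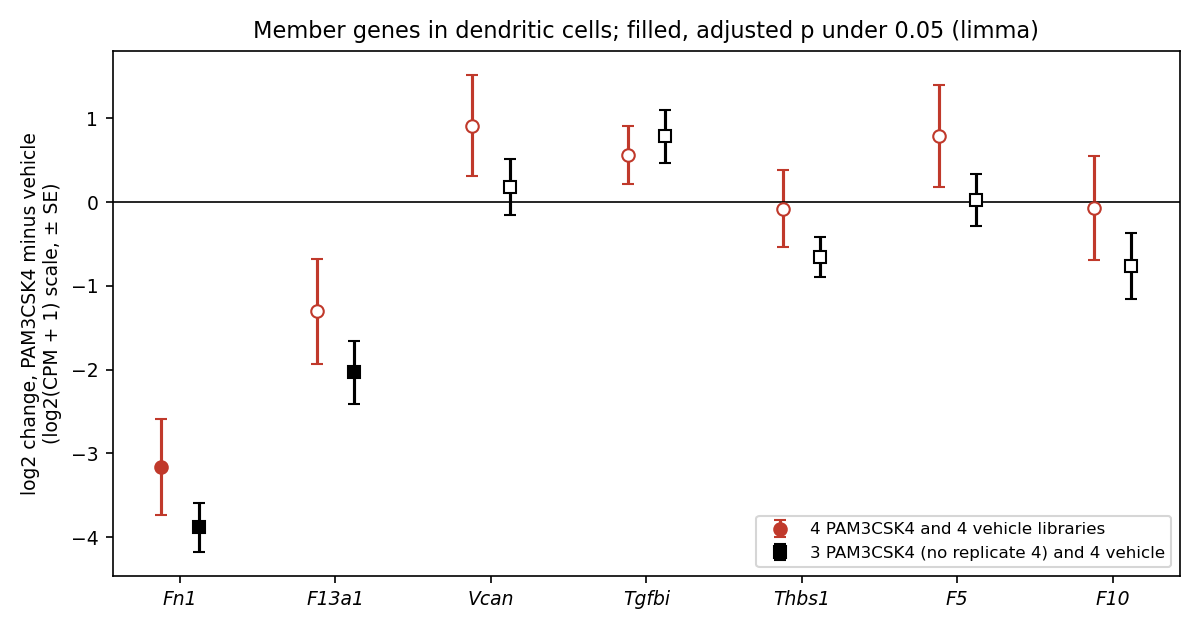
Log2 change, PAM3CSK4 minus vehicle, of the 7 tested genes with SE (y), for all 8 dendritic cell libraries (circles) and without PAM3CSK4 replicate 4 (squares); filled symbols have an adjusted p under 0.05 by limma. Fn1 is filled in both fits, F13a1 only without replicate 4, and the other genes in neither.

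PAM3CSK4 replicate 4 held the highest value of the 8 dendritic cell libraries for 5 of the 8 genes, namely F13a1, Vcan, Thbs1, F5 and F10. Over all genes tested it was the highest library for 26.7%. Relative to the highest vehicle library, replicate 4 stood at 1.37 times for F13a1, 8.56 times for Vcan, 3.41 times for Thbs1, 5.90 times for F5 and 2.69 times for F10. Its Ly6c2, a gene of classical monocytes, was at 170 CPM, against 16.9 to 23.6 CPM in the other PAM3CSK4 libraries and 11.97 to 32.6 CPM with vehicle. The 14 monocyte genes did not move as one: 3 were higher in replicate 4 than in every other PAM3CSK4 library and 5 were lower, among them Csf1r (182 CPM, against 257 to 621 CPM), Ms4a4c (14.9 CPM, against 49.4 to 89.5 CPM) and Nr4a1 (17.5 CPM, against 25.7 to 50.4 CPM), and their sum of 3129 CPM lay between those of the other PAM3CSK4 libraries. Of the 13 neutrophil genes 12 were higher there. The neutrophil gene Ltf was at 1962 CPM, against 59.7 to 264 CPM in the others and 29.2 to 63.6 CPM with vehicle. Cx3cr1, the gene of the reporter in the gate, was at 31.3 CPM, against 152 to 209 CPM in the others and 107 to 189 CPM with vehicle. All 10 of 10 erythroid genes were higher in replicate 4 than in every other PAM3CSK4 library (sum 1047 CPM, against 90.5 to 374 CPM). Of 14 megakaryocyte and platelet genes 8 were higher and 2 lower (40.6 CPM, against 11.2 to 22.3 CPM, and 30.9 to 53.7 CPM with vehicle). Of 8 T and NK cell genes 6 were higher and 0 lower, and of 16 stroma and endothelium genes 10 were higher and 3 lower. The part of monocytes, neutrophils or these other cells in the values of replicate 4 was not tested. Without this library, all PAM3CSK4 libraries were below all vehicle libraries for 3 of the 8 genes, Fn1, F13a1 and Thbs1, as for 6.06% of the 11499 genes tested in that fit.

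**Figure D3:**
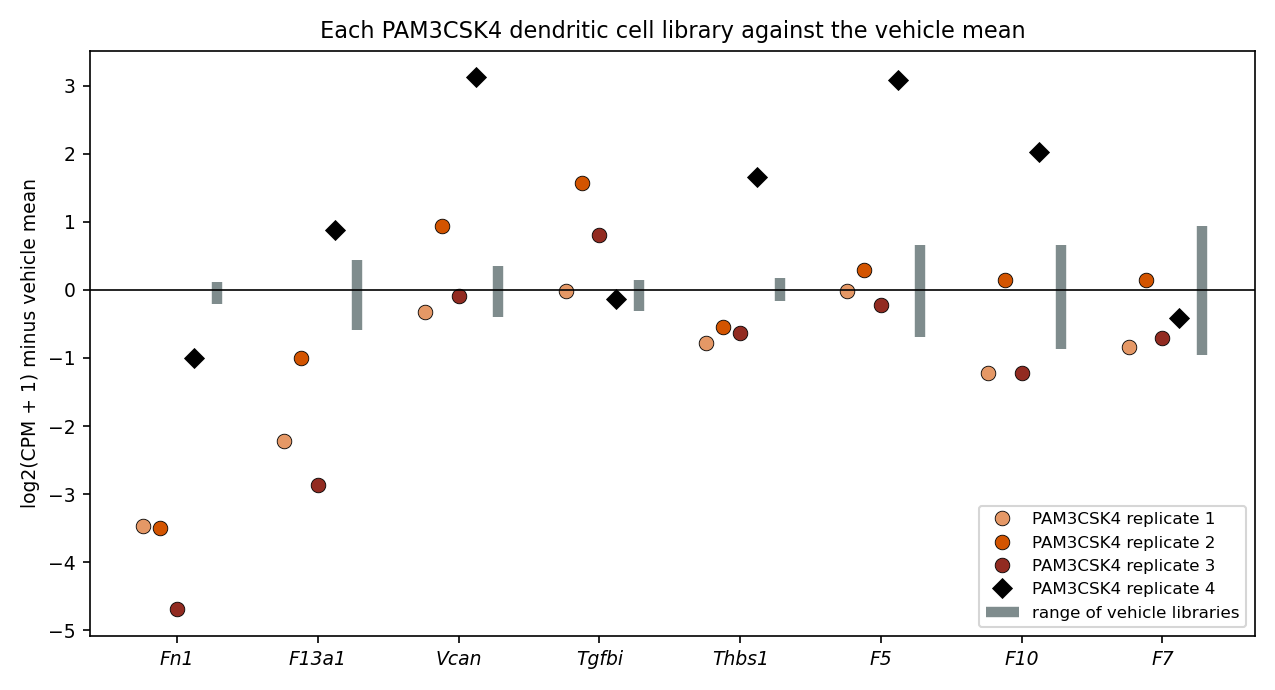
Log2(CPM + 1) of each PAM3CSK4 dendritic cell library minus the vehicle mean (y) for each gene (x), with grey bars for the range of the 4 vehicle libraries. Replicate 4 (diamond) lies above the vehicle range for F13a1, Vcan, Thbs1, F5 and F10, and all PAM3CSK4 libraries lie below it for Fn1.

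Genes whose level followed the mean of the standardized profiles of the 7 tested genes most closely were found by Pearson correlation among genes with a mean of at least 5 CPM. Over the 8 dendritic cell libraries these were Hdac4 (r = 0.97), Ptgs1 (0.96), Fastkd5 (0.95), Eci1 (0.95) and Ampd3 (0.95). In that profile F10 (r = 0.92), Thbs1 (0.91), Vcan (0.87), F5 (0.84) and F13a1 (0.84) correlated most with it, Fn1 less (0.51), and Tgfbi ran the other way (−0.19). Without PAM3CSK4 replicate 4, the same 5 genes had r = 0.92, 0.90, 0.93, 0.86 and 0.87 over 7 libraries, and the members' values were 0.77 for F10, 0.62 for Thbs1, 0.56 for Vcan, 0.46 for F5, 0.87 for F13a1, 0.66 for Fn1 and 0.13 for Tgfbi. Over the 6 macrophage and monocyte libraries they were Cd302 (r = 0.998), Cnbd2 (0.99), Gm14548 (0.99), I830077J02Rik (0.99) and Inpp5f (0.99), and among the 7 genes Thbs1 (0.20) and F5 (0.58) followed least. Each of the 7 genes is part of the profile it was set against, which raises its own r. These values describe libraries that share depth and cell makeup, and carry no test.

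The other genes of clotting were sparse. Of 13 further clotting factors and cofactors, among them prothrombin, tissue factor and the fibrinogen chains, Vwf alone passed the filter in either table. Vwf, the gene of von Willebrand factor and also a megakaryocyte marker, was higher in macrophages (54.3 ± 32.0 CPM) than in monocytes (3.08 ± 2.15 CPM, SD, n = 3 each), with a log2 difference of 3.69 ± 0.47 (adjusted p = 0.000193). This was the other direction from F13a1, F10 and Fn1. Of 11 megakaryocyte genes tested, Vwf itself among them, 8 were higher in macrophages. Of 12188 genes tested, 20.2% were called, 12.8% as higher and 7.42% as lower in macrophages (1564 and 904 genes, against 1004 and 1238 after quantile normalization). In dendritic cells Vwf averaged 6.19 ± 4.05 CPM with PAM3CSK4 and 19.6 ± 6.001 CPM with vehicle (SD, n = 4 each), a fall of −1.65 ± 0.38 (adjusted p = 0.0307). Of 5 megakaryocyte genes tested 2 were lower, Vwf itself among them. The list's sums, which include Vwf, were 22.3, 16.7, 11.2 and 40.6 CPM with PAM3CSK4 and 30.9 to 53.7 CPM with vehicle. The part of megakaryocyte or platelet RNA in the Vwf values was not tested.

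Anticoagulants and thrombin receptors were divided in macrophages, with 3 higher and 3 lower of 10 tested, against 12.8% and 7.42% of all genes. The thrombin receptor genes F2r (4.34 ± 0.37, adjusted p = 2.4e-05) and F2rl3 (2.46 ± 0.39, adjusted p = 0.000847) and the protein C receptor Procr (2.88 ± 0.38, adjusted p = 0.00025) were higher. Procr, at 8.64 ± 5.45 CPM in macrophages and 0.192 ± 0.113 CPM in monocytes, passed the filter through macrophages alone. Thbd, thrombomodulin, was lower by −1.99 ± 0.35 (10.2 ± 3.76 CPM in macrophages and 44.7 ± 20.1 CPM in monocytes, adjusted p = 0.00174), as were Pros1, protein S (−1.83 ± 0.30), and Anxa5 (−1.41 ± 0.22). The list's median log2 difference was 0.47, against 0.10 for all genes. In dendritic cells 0 of 9 tested passed by limma, 2 had an unadjusted p under 0.05, and 1 was called as lower with median centring. Procr (1.19 ± 0.33, adjusted p = 0.0601) and F2rl2 (−1.21 ± 0.34, adjusted p = 0.0622) came nearest, and F2rl2 passed without PAM3CSK4 replicate 4 (adjusted p = 0.0444).

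Of 9 genes of the vitamin K cycle and of the secretion of clotting factors, which F10 and F7 depend on, 1 was higher in macrophages and no other passed (2 had an unadjusted p under 0.05, and 1 was higher and 1 lower with median centring). That gene, in a contrast where 20.2% of all genes were called, was Nqo1 (1.66 ± 0.28, adjusted p = 0.00138 by limma), a quinone reductase. Nqo1 was at 2.39 ± 0.542 CPM in macrophages and 0.0612 ± 0.0569 CPM in monocytes (SD, n = 3 each), so it passed the filter through macrophages alone. Of 8 tested in dendritic cells, Furin, a protease that cleaves propeptides, fell with PAM3CSK4 (39.5 ± 3.15 CPM, against 66.6 ± 7.61 CPM with vehicle, SD, n = 4 each, adjusted p = 0.0465). Of 7 fibrinolysis genes tested, 1 was higher and 4 were lower in macrophages (0 and 4 after quantile normalization), with a median of −1.05. Without the filter on low values the counts were 2 and 4, and the median had the other sign, 0.22. Lower were Anxa2 (77.6 ± 11.9 CPM, against 270 ± 41.2 CPM in monocytes, SD, n = 3 each), its partner S100a10 (−1.05 ± 0.26), the urokinase gene Plau (−1.79 ± 0.33) and its receptor Plaur (−1.68 ± 0.33), with adjusted p between 0.0003 and 0.0134. Serpine2, an inhibitor of thrombin and plasminogen activators, was higher (1.43 ± 0.34, adjusted p = 0.00978). In dendritic cells 0 of 7 fibrinolysis genes passed by limma and 3 had an unadjusted p under 0.05. S100a10 came nearest (−1.05 ± 0.30, adjusted p = 0.0635) and passed without PAM3CSK4 replicate 4 (adjusted p = 0.0412).

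Of all genes tested, 12.8% were higher and 7.42% lower in macrophages. Of 29 other matrix genes tested, 10 were higher and 2 lower in macrophages (7 and 3 after quantile normalization) and 17 were not called. Their median was 1.04, against 0.10 for all genes, and 0.34 after quantile normalization, against −0.03 for all genes. Without the filter on low values 9 were higher and 1 lower, with a median of 0.39, against 0.10 for all genes. The collagen IV genes Col4a1 (2.57 ± 0.37) and Col4a2 (2.76 ± 0.41), Postn (1.81 ± 0.28), the latent TGF-beta binding proteins Ltbp3 (2.19 ± 0.42) and Ltbp1 (1.55 ± 0.32), the laminin gene Lamc1 (1.69 ± 0.36), Fgl2, Nid1, Fbn1 and Bgn were higher. Of these, Postn, Nid1, Ltbp1, Fbn1 and Bgn averaged 0.101 to 0.687 CPM in monocytes, so the filter could pass them only with macrophage libraries. Emilin2 (33.7 ± 12.8 CPM in macrophages, 330 ± 98.9 CPM in monocytes, SD, n = 3 each, adjusted p = 4.7e-05) and Matn2 (−1.08 ± 0.33) were lower. Marrow stroma and endothelium genes moved alongside, with 5 of 9 tested higher in macrophages, though their sums overlapped (75.9 to 163 CPM, against 56.4 to 102 CPM in monocytes), and their part was not tested. In dendritic cells 1 of 25 passed, against 5.12% of all genes. This was Lamc1, which rose with PAM3CSK4 by 1.42 ± 0.27 (adjusted p = 0.0139 by limma). Without PAM3CSK4 replicate 4 the basement membrane gene Nid2 was also called, as lower (−1.17 ± 0.29, adjusted p = 0.0253). Of 8 stroma and endothelium genes tested 2 were higher with PAM3CSK4, and their sums did not overlap, at 72.5 to 147 CPM with PAM3CSK4 and 22.1 to 57.6 CPM with vehicle. Their part in the Lamc1 value was not tested.

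In macrophages, 12.8% of all genes tested were higher and 7.42% lower than in monocytes. Of 26 receptors that bind fibronectin, versican, thrombospondin 1 or the Tgfbi protein, 7 were higher and 7 lower in macrophages (4 and 7 after quantile normalization). Higher were the integrin genes Itga2 (2.71 ± 0.30), Itga3, Itga6 and Itga9, the thrombospondin receptor Cd36 (34.4 ± 18.0 CPM, against 7.99 ± 4.39 CPM in monocytes, SD, n = 3 each), Sdc4, and Sdc1, which is also a plasma cell gene. Itga2 and Itga3 averaged 0.774 and 0.591 CPM in monocytes, under the 1 CPM of the filter. Lower were Lrp1 (−3.09 ± 0.46), Itga1 (−2.52 ± 0.36), Itgam (−1.80 ± 0.29), Tlr2 (−1.59 ± 0.24), Itga5, the alpha chain of the classical fibronectin receptor (24.2 ± 7.96 CPM, against 52.7 ± 11.3 CPM), Itgb2 and Selplg. In dendritic cells 2.82% of all genes tested were called as higher with PAM3CSK4 and 2.29% as lower. Of the 26 receptors 2 rose and 2 fell (2 and 4 with median centring, 4 and 3 without PAM3CSK4 replicate 4). Without the filter on low values, or without vehicle replicate 1, 2 or 4, limma called none of them (11 had an unadjusted p under 0.05 with all libraries), and 1 passed without PAM3CSK4 replicate 3 or without vehicle replicate 3. Itgam (454 ± 253 CPM with PAM3CSK4, 148 ± 32.7 CPM with vehicle, SD, n = 4 each, adjusted p = 0.0274) and Itga6 (1.19 ± 0.25, adjusted p = 0.0216) rose, while Itga8 (−1.69 ± 0.40, adjusted p = 0.0318) and Itgb7 (−1.50 ± 0.38, adjusted p = 0.0438) fell.

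Matrix proteases and their inhibitors were divided in macrophages, with 4 higher and 4 lower of 19 tested, against 12.8% and 7.42% of all genes. Timp3 (2.57 ± 0.32), Mmp2 (2.27 ± 0.33), Adam8 (2.79 ± 0.44) and Mmp25 (2.03 ± 0.34) were higher, and Mmp8 (−3.98 ± 0.47), Mmp19 (−2.08 ± 0.30), Adam15 (−2.08 ± 0.35) and Ctss (−1.92 ± 0.30) were lower, with adjusted p between 0.000114 and 0.00134. Timp3 and Mmp2 averaged 0.555 and 0.313 CPM in monocytes, under the 1 CPM of the filter. In dendritic cells 2 of 17 tested were called, against 5.12% of all genes. Mmp8, a collagenase and also a neutrophil marker, rose with PAM3CSK4 by 2.76 ± 0.52 (adjusted p = 0.0135 by limma), and Timp2 fell (19.0 ± 3.80 CPM, against 40.4 ± 6.49 CPM with vehicle, SD, n = 4 each, adjusted p = 0.0217). Mmp8 was at 45.3 CPM in PAM3CSK4 replicate 4, against a mean of 12.5 CPM in the other PAM3CSK4 libraries. Without that library 5 genes of the list passed rather than 2, while 6.83% of all genes were called. Mmp14 (2.34 ± 0.41) and Tgm2 (1.27 ± 0.32) were then also higher and Mmp12 (−1.51 ± 0.43) also lower. Of 21 genes of TGF-beta signalling, the pathway that Tgfbi is named for, 3 were higher (Tgfb3, Tgfbr3 and Smad7) and 1 lower (Nrros) in macrophages, against 1 and 2 with median centring and 0 and 0 after quantile normalization. Tgfb3, at 1.75 ± 0.413 CPM in macrophages and 0.0564 ± 0.0974 CPM in monocytes, passed the filter through macrophages alone. In dendritic cells 0 of 19 passed by limma, 3 had an unadjusted p under 0.05 and 2 were lower with median centring, with Tgif1 nearest (−0.89 ± 0.26, adjusted p = 0.0644).

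These calls differ in how far they rest on single libraries. In dendritic cells each of the 9 listed genes called was lost when some library was left out, and 7 of the 9, all but Furin and Timp2, when no filter on low values was used. Vehicle replicate 1 ended the calls of all but Timp2, vehicle replicate 2 those of all but Mmp8, vehicle replicate 3 ended 6 and vehicle replicate 4 ended 7, while PAM3CSK4 replicates 1, 2 and 3 ended 1, 3 and 5. The highest adjusted p over those fits and the other settings was between 0.0612 for Lamc1 and 0.133 for Furin. In macrophages against monocytes 18 of 51 calls were lost in this way, 12 each without macrophage replicate 1 or 2, 10 without monocyte replicate 3 and 2 to 5 without one of the others. Among the lost were Serpine2, S100a10, Fgl2, Nid1, Fbn1, Matn2, Bgn, Cd36, Sdc4, Itga3, Itga5, Itga6, Itga9, Itgb2, Selplg, Nrros, Smad7 and Tgfbr3, and Vwf, F2r, Thbd, Anxa2, Emilin2 and Col4a1 were not among them.

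**Figure D4:**
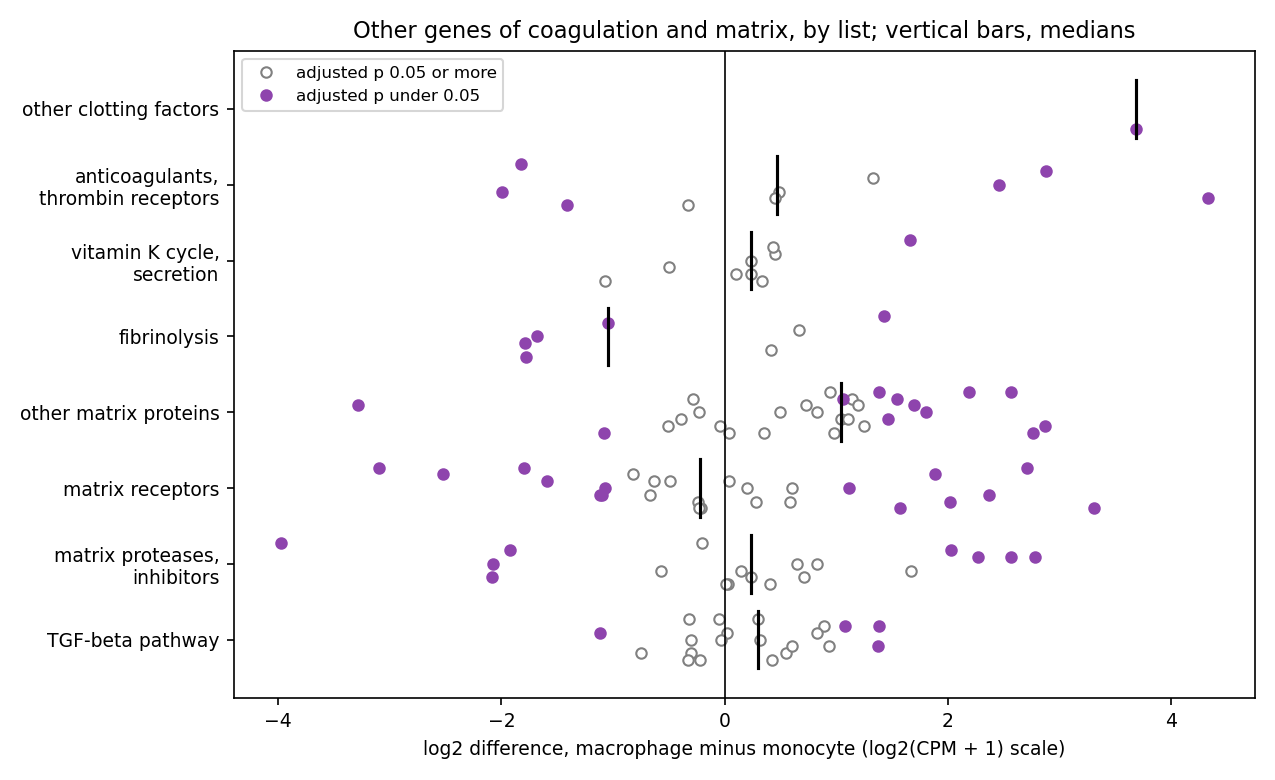
Log2 difference, macrophage minus monocyte (x), of each tested gene of the 8 lists of other clotting and matrix genes (rows), with filled points for an adjusted p under 0.05 by limma and vertical bars for medians. The median of the genes that passed the filter is −1.05 for fibrinolysis and 1.04 for other matrix proteins (0.22 and 0.39 without the filter). Receptors and proteases lie on both sides of 0.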

How the data were processed

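RNA was purified with the Qiagen RNeasy Micro kit and made into libraries with KAPA RNA HyperPrep with RiboErase, per the labels' protocols. The submitters' processing notes name mm10, STAR 2.5.3a and Partek but not what each was used for, and annotation and strand setting are not given in the sources either. The authors deposited the values under the name FPKM; since they rise in steps shared by short and long genes they are read here as CPM. In that reading 1 CPM is 28.2 to 75.2 steps, and the values of a library sum to 350368 to 578711 CPM. With 66.3% to 69.0% of low values whole in the dendritic cell table and 87.9% to 90.8% in the other, counts were not recovered and no count test was run. The test planned for FPKM also serves CPM. No libraries held identical values.

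Differences in log2(CPM + 1), computed from the deposited values, were tested with limma 3.58.1 in R 4.3.3 (lmFit, eBayes with trend), with two-sided p-values adjusted by Benjamini-Hochberg for every tested gene and a threshold of 0.05. A gene needed 1 CPM in at least 4 dendritic cell or 3 macrophage and monocyte libraries. It could thus be tested through 1 group alone. The fold understates the change of low genes. The members and gene lists were chosen with earlier results of these data known. Named are all 8 members, from each list every called gene and otherwise up to 3 of lowest p, and the 5 genes of most similar pattern. A further 3 columns of per-sample values, whose names mark dendritic cells but match no single sample, were not used. Alternatives were another pseudocount (0.1), no filter, 3 scalings, no trend, a replicate block and each library left out. Gene ends are the deposited end less 1 base. Of 16619 symbols with the same start in RefSeq, 13124 had that end there, and 428 had the end as deposited.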

Additional observations from a re-analysis of the deposited data

Results flagged for a closer look

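The 8 genes in the PAM3CSK4 and vehicle dendritic cells gave 16 sets of library values. For normally distributed values chance alone marks about 1 such set in 20, but whether that rate holds for these CPM values was not tested. In 4 of the 16 sets 1 library lay far from the other 3, and each time it was PAM3CSK4 replicate 4. The library held 122 CPM of Fn1, against 8.51 to 21.2 CPM in the other PAM3CSK4 libraries, a gap of 0.888 of the group's range. It held 29.0 CPM of Vcan against 1.76 to 5.61 CPM, 9.97 CPM of Thbs1 against 1.03 to 1.38 CPM, and 49.3 CPM of F5 against 4.13 to 6.27 CPM. The 4 values come from 1 library and are not independent of each other.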

How the results depend on the processing

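In dendritic cells 582 genes were called, 166 without a filter on low values, 976 with a replicate block and 184 to 1008 with any 1 library left out (1008 without PAM3CSK4 replicate 1, 258 without replicate 3, and 206, 184, 226 and 261 without vehicle replicates 1 to 4); the cause was not tested. The split of higher to lower calls, 321 to 261, was 277 to 391 after scaling to a common total, 208 to 487 after median centring and 237 to 438 after quantile normalization, with an all-gene median of 0.20 on the log2 scale, then 0.07, −0.02 and 0.03. Thbs1 and F10, neither of them called, changed sign with 1 library left out, over −0.66 to 0.16 and −0.76 to 0.32; in macrophages against monocytes Thbs1 did too (−1.27 to 0.83, and 0.08 with a common total), as did F5 (−0.49 to 0.09). In macrophages against monocytes the 2468 calls were 2609 with the block and 1699 to 3364 with 1 library left out, and the split of 1564 to 904 was 2109 to 769, 1370 to 1303 and 1004 to 1238 under the same scalings (median 0.10, then 0.26, −0.02 and −0.03). Tgfbi moved by more than the spread between replicates only under quantile normalization, to −2.39. Whether replicate numbers pair the libraries is not settled by the correlations of their deviations, and the main fits did not pair them. Same-numbered libraries correlated at 0.03, 0.29, −0.12 and 0.30 in dendritic cells, each other's best match only for replicates 2 and 4. In the others they correlated at 0.18, 0.08 and 0.12, where each library correlated best with its own number. Of 203 values of the 7 tested genes under an alternative, 12 had another sign (Thbs1, F10 and F5), 2 lost a call (Fn1) and 1 gained it (F13a1). At 1 CPM a gene rests on 28.2 to 75.2 steps, which limits F7 most.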
